A study of Mus musculus with 4 samples.

Results

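The 10 genes described here are Gpr17, Bcas1, Enpp6, Itpr2, Rras2, Fyn, 9630013A20Rik, Tmem163, Kif19a and Cnksr3, known in mouse as genes that come on as oligodendrocyte precursors commit and become new oligodendrocytes. They were chosen by name, with earlier results of these data known, and make up 10 of 21249 gene sums. All 10 were found, and all 10 were above the filter for testing, a mean of at least 1 FPKM (fragments per kilobase of transcript, scaled to the mapped fragments of the library). A gene sum is the FPKM added over the transcript rows of a gene that are at least 300 bases long.

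RNA was sequenced from whole spinal cord of mice at postnatal day 8 on a mixed strain background. The cKO group (2 libraries) had genotype Chd7 f/f; Olig1-cre, with floxed copies of the chromatin remodeler gene Chd7 only, and the Ctrl group (2 libraries) had genotype Chd7 f/+; Olig1-cre, with 1 floxed copy. Both groups thus carry the Cre recombinase, which Olig1, a gene active in the oligodendrocyte lineage, drives, and the Ctrl animals are not wild type. The series asks how CHD7 and Sox10 act on the timing of myelination. The labels do not say whether each library comes from its own animal, so the p-values measure the spread between these libraries, which for the Ctrl libraries may be technical. The cKO libraries differ in sex-linked expression (Xist and Ddx3y) and thus hold RNA of different animals.

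Oligodendrocytes arise from dividing precursors that carry the growth factor receptor Pdgfra. On leaving the cell cycle a precursor passes through a committed stage, marked by Gpr17, and then a premyelinating stage, marked by Bcas1 and Enpp6, before the genes of the myelin sheath dominate. Gpr17 is switched off again in mature cells, so it marks a passing stage, in which the postnatal cord is rich. In whole cord, fewer cells of a stage and less RNA per cell cannot be told apart.

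Relative sequencing depth ran from 1.0 in Ctrl 2, the shallowest library, to 3.19 in cKO 2. The tables hold no read totals. Chd7 itself was at 2.53 and 3.38 FPKM in cKO libraries and at 3.52 and 3.12 FPKM in Ctrl libraries (log2 fold change -0.13 ± 0.16, SE, limma adjusted p = 0.657). The floxed exons are not given in the labels and most cells of the cord lie outside the Olig1 lineage, so this level checks the genotype little. Libraries differed in other ways. The sum of 6 meningeal markers was 23.2 to 27.8 FPKM in cKO and 44.1 to 232 FPKM in Ctrl, with none at 0 and Ctrl 1 highest, and 5 of the 6 fell. The sum of 6 Schwann cell markers was 16.1 to 18.6 FPKM in cKO and 16.6 to 69.6 FPKM in Ctrl, with Dhh at 0 in Ctrl 2, and 2 of the 3 tested fell. Xist, expressed from the inactive X of females, was at 19.6 and 0.23 FPKM in cKO 1 and cKO 2 and at 55.6 and 51.8 FPKM in Ctrl libraries. Ddx3y, a gene of the Y chromosome, was at 0.195 and 11.6 FPKM in cKO 1 and cKO 2 and at 0.144 and 0.072 FPKM in Ctrl libraries. Sex-linked expression thus differed within cKO and between cKO 2 and both Ctrl libraries. None of the 10 genes lies on a sex chromosome. The part of these differences in the results was not tested. Of 6 astrocyte markers 1 rose, Slc1a3, and none of 6 endothelial markers passed, with medians of -0.21 and -0.13 on the log2 scale. Medians of the other cell types were farther from 0. They were -0.99 for meningeal markers, -1.36 for the 3 tested Schwann cell markers, -0.39 for microglia markers and 0.50 for neuron markers.

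Genes of the committed and newly formed stages were lower in cKO cords. Of the 10 genes, 8 fell and none rose by the limma test at an adjusted p under 0.05, against a background of 6.54% of 12913 tested gene sums that fell and 4.13% that rose. At an unadjusted p under 0.05 none was higher either. The median log2 fold change of the 10 was -0.97, beside -0.0028 over all tested genes. All 10 had both cKO libraries below both Ctrl libraries, an order seen in 29.3% of tested genes, and none had the opposite order, seen in 24.3%. At a distance of at least 1.5-fold between the groups, 5 of the 10 kept this order, against 2.84% of tested genes.

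**Figure D1:**
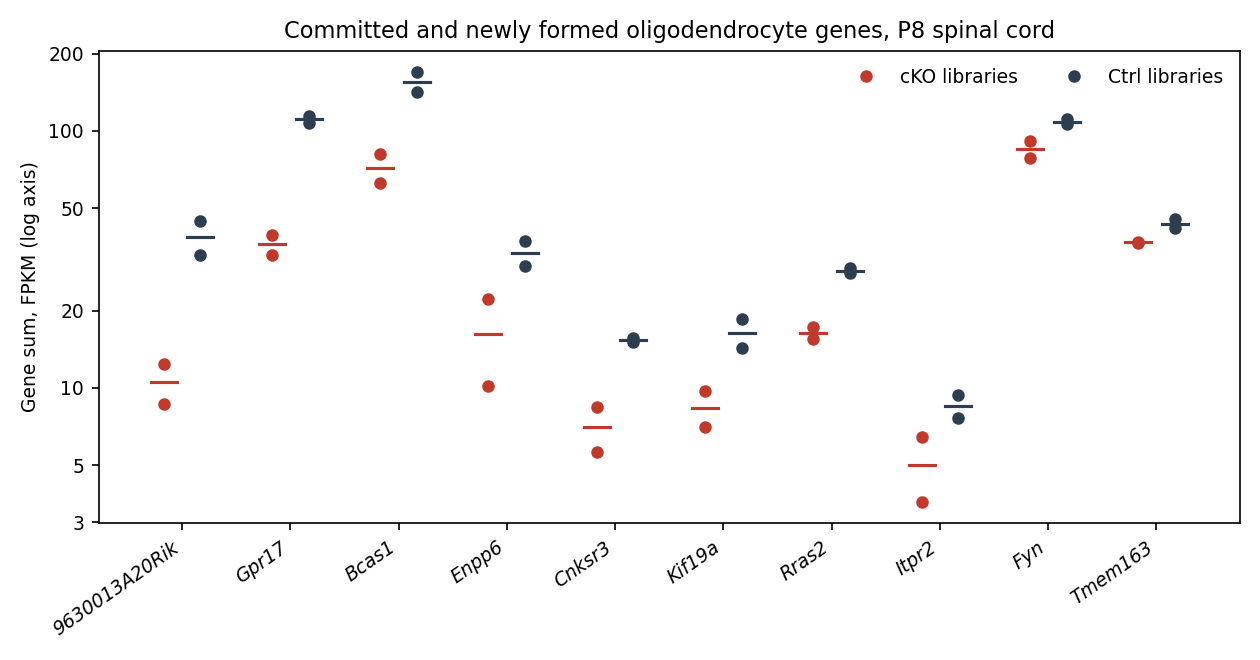
FPKM of each of the 10 genes (log axis) in the 2 cKO libraries, left of the 2 Ctrl libraries in each column, with dots for libraries and dashes for group means. Genes run from the lowest log2 fold change (9630013A20Rik, -1.79) to the highest (Tmem163, -0.23), and in each column both cKO dots lie below both Ctrl dots.

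Gpr17, the marker of the committed stage, fell. It is a G protein-coupled receptor related to nucleotide and cysteinyl leukotriene receptors and known in mouse to hold back final maturation (chromosome 18, 32102653 to 32109290 on mm9). Gpr17 was at 32.9 and 39.4 FPKM in cKO libraries and at 107 and 114 FPKM in Ctrl libraries. The libraries of each group lay close together and the groups were far apart. The means were 36.2 ± 4.64 FPKM in cKO and 111 ± 4.81 FPKM in Ctrl (SD, n = 2 each), so cKO held 32.6% of the Ctrl mean. The log2 fold change was -1.60 ± 0.18 (SE, limma adjusted p = 2.37e-08), the 21st lowest of the 12913. Gpr17 had a mean depth of 52.3 and 90.1 reads per base in cKO libraries and 160 and 81.9 in Ctrl libraries. The locus of Lims2, an adaptor gene on the other strand, overlaps it, and in GENCODE on GRCm38 the 2 genes share 188 exon bases, 3.62% of the Gpr17 exon bases. Whether reads were counted by strand is not given in the sources used here. Lims2 was at 16.2 and 15.1 FPKM in cKO and at 15.4 and 33.8 FPKM in Ctrl and did not pass (limma adjusted p = 0.0834).

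The noncoding transcript 9630013A20Rik showed the lowest log2 fold change of the 10 (chromosome 14, 84858645 to 84876231 on mm9). Its levels were 8.63 and 12.4 FPKM in cKO libraries and 44.4 and 33.0 FPKM in Ctrl libraries. Both groups varied within themselves, yet the higher cKO library was still well below the lower Ctrl library. With a log2 fold change of -1.79 ± 0.17 (SE, limma adjusted p = 6.85e-10) it was the 12th lowest of all tested genes. It lies inside the locus of Pcdh17, a protocadherin gene of the other strand, with which it shares 0 exon bases in GENCODE on GRCm38. Pcdh17 was at 13.5 and 14.5 FPKM in cKO and 14.6 and 10.8 FPKM in Ctrl and did not pass (limma adjusted p = 0.624).

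Both markers of premyelinating cells fell. Bcas1, a gene that labels oligodendrocytes before and at the start of myelination (chromosome 2, 170172491 to 170253345 on mm9), was at 62.9 and 81.0 FPKM in cKO libraries and at 142 and 169 FPKM in Ctrl libraries. It was the most abundant of the 10 in Ctrl, and its log2 fold change was -1.11 ± 0.19 (SE, limma adjusted p = 8.79e-05). Enpp6, a phosphodiesterase that acts on choline phospholipids (chromosome 8, 48072279 to 48180249 on mm9), was at 10.2 and 22.1 FPKM in cKO libraries and at 37.2 and 29.7 FPKM in Ctrl libraries. The cKO libraries of Enpp6 differed more than 2-fold from each other. Its log2 fold change of -1.09 ± 0.20 (SE, limma adjusted p = 0.000172) went to -0.57 without cKO 1 and then did not pass (limma adjusted p = 0.14). In a fit without 1 library the lone library left in its group is assumed to vary like the other group, which gives the only residual degree of freedom, and the rest of the spread is pooled over genes.

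Among the signaling, scaffold and motor genes, Cnksr3, Rras2 and Kif19a fell. Cnksr3, a scaffold of the Ras and MAP kinase pathway (chromosome 10, 3134304 to 3227479 on mm9), was at 5.63 and 8.42 FPKM in cKO libraries and at 15.1 and 15.6 FPKM in Ctrl libraries, a log2 fold change of -1.05 ± 0.16 (SE, limma adjusted p = 1.17e-05). Rras2, a small GTPase of the Ras family (chromosome 7, 121190296 to 121261295 on mm9), was at 15.5 and 17.3 FPKM in cKO libraries and at 28.0 and 29.1 FPKM in Ctrl libraries. The libraries of Rras2 agreed closely within each group, and its log2 fold change was -0.77 ± 0.16 (SE, limma adjusted p = 0.000737). Kif19a, a kinesin-8 motor known in mouse for setting the length of motile cilia (chromosome 11, 114626703 to 114651889 on mm9), was at 7.04 and 9.72 FPKM in cKO libraries and at 14.2 and 18.5 FPKM in Ctrl libraries (log2 fold change -0.89 ± 0.16, SE, limma adjusted p = 0.00017). Dnaic2, a dynein gene of motile cilia 7.5 kb from Kif19a, was at 1.05 and 1.54 FPKM in cKO and 1.21 and 0.869 FPKM in Ctrl and did not pass.

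Itpr2, a calcium channel of the endoplasmic reticulum that opens on inositol trisphosphate (chromosome 6, 146060002 to 146450434 on mm9), was the least abundant of the 10 in all 4 libraries. It stood at 3.60 and 6.42 FPKM in cKO libraries and at 9.39 and 7.66 FPKM in Ctrl libraries. The upper cKO library came near the lower Ctrl library, and the depth was 5.74 and 14.7 reads per base in cKO and 13.95 and 5.49 in Ctrl. Its log2 fold change was -0.70 ± 0.17 (SE, limma adjusted p = 0.00496). Without cKO 1 it was -0.35 and did not pass (adjusted p = 0.563), and it also missed the threshold under median-of-ratios scaling (adjusted p = 0.0597) and under TPM scaling (adjusted p = 0.0928).

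Fyn and Tmem163 did not pass. Fyn, a Src family kinase that drives process outgrowth and local Mbp translation in oligodendrocytes and is also active in neurons (chromosome 10, 39089605 to 39285180 on mm9), was at 78.2 and 91.1 FPKM in cKO libraries and at 106 and 111 FPKM in Ctrl libraries. Its log2 fold change was -0.36 ± 0.18 (SE, limma adjusted p = 0.226). Tmem163, a membrane protein that transports zinc and is also known from synaptic vesicles (chromosome 1, 129386919 to 129574598 on mm9), was at 36.7 and 37.1 FPKM in cKO libraries and at 41.8 and 45.2 FPKM in Ctrl libraries. Its log2 fold change was -0.23 ± 0.16 (SE, limma adjusted p = 0.414). In both genes the cKO libraries were below the Ctrl libraries by a small margin. The sum of 8 neuron markers, none at 0, was 2053 to 2460 FPKM in cKO and 1584 to 1621 FPKM in Ctrl, and 1 of the 8 rose, Slc32a1. The part of neurons in the levels of Fyn and Tmem163 was not tested.

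**Figure D2:**
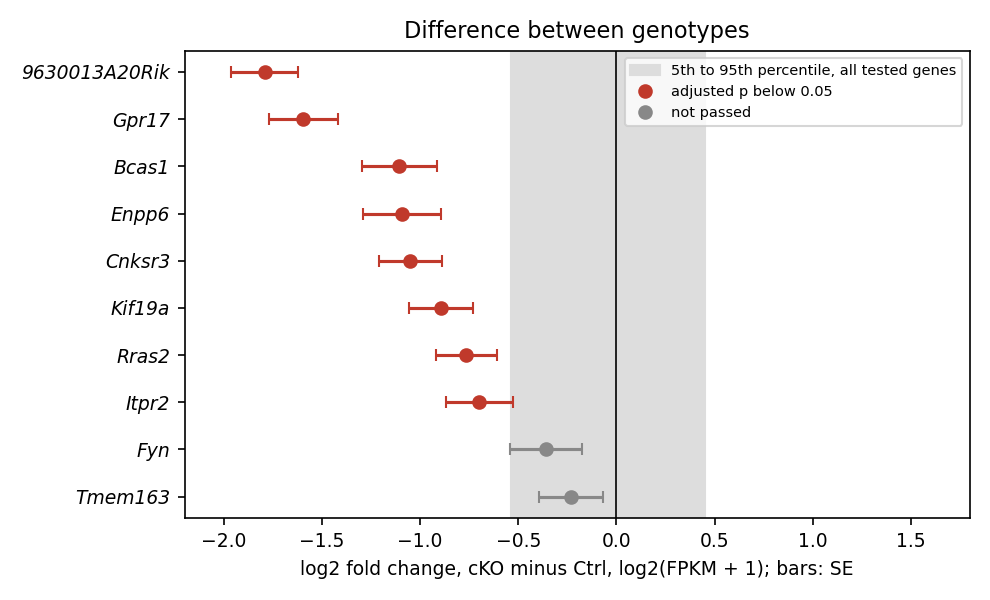
Log2 fold change (cKO minus Ctrl, on log2(FPKM + 1)) of each gene with its SE as bars, red where the limma adjusted p was under 0.05 and grey where it was not. The grey band spans the 5th to 95th percentile of all tested genes (-0.54 to 0.45), and 8 of the 10 genes lie to its left.

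The order of levels differed between the groups. In Ctrl libraries Bcas1 (155 FPKM on average) came first, followed by Gpr17 (111) and Fyn (109), and the 2 Ctrl libraries of Gpr17 and Fyn overlapped. In cKO libraries Fyn (84.6 FPKM on average) came first and Bcas1 (71.9) second, with overlapping libraries, and Tmem163 (36.9) and Gpr17 (36.2) followed, also overlapping. 9630013A20Rik was 7th in cKO and 5th in Ctrl. Itpr2 was last in both groups.

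All 10 genes lay farther below the Ctrl mean in cKO 1 than in cKO 2. The median deviation from the Ctrl mean on the log2 scale was -1.19 in cKO 1 and -0.69 in cKO 2. In cKO 1 the deviations ran from -2.03 to -0.24, and in cKO 2 from -1.55 to -0.22. This order is not particular to the 10 genes. Medians in cKO 1 and cKO 2 were -1.67 and -0.996 for mature markers and -0.87 and -0.50 for other committed and newly formed genes. For microglia, endothelial and meningeal markers the median was lower in cKO 2. The share of all tested genes with this order was not counted. Without cKO 1, 6 of the 10 genes fell, with Enpp6 and Itpr2 lost, and the background was then 274 lower calls in place of 845. Without Ctrl 1, the library with the highest meningeal and Schwann cell markers, 8 fell, with 745 lower calls over all genes. In both of these fits a group holds 1 library, so they are no replicated test of it.

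Other genes of the same stages were described beside the 10. They were listed from knowledge of mouse oligodendrocytes, but with earlier results of these data known, so they are no independent support. Of 20 such genes 14 fell and 0 rose at the same threshold, against 6.54% and 4.13% of all tested gene sums. The median log2 fold change of the 20 was -0.65. Bmp4, a secreted factor that committed precursors make, was at 3.35 and 3.57 FPKM in cKO and 8.49 and 10.4 FPKM in Ctrl (log2 fold change -1.22 ± 0.15, SE, limma adjusted p = 3.71e-07). Neu4, a sialidase, was at 3.17 and 3.88 FPKM in cKO and 8.42 and 10.2 FPKM in Ctrl. Prom1, a membrane glycoprotein, was at 3.13 and 3.72 FPKM in cKO and 9.68 and 7.77 FPKM in Ctrl. Chn2, a Rac GTPase-activating protein, was at 14.04 and 16.5 FPKM in cKO and 27.4 and 31.7 FPKM in Ctrl. All 4 fell. Mycl1, Mical3, Tmem108, Gp1bb, Frmd4a and Lims2 did not pass.

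Markers of the stages before and after were counted in the same way. Of 10 precursor markers none fell and 2 rose, Cacng4 and Lppr1 (listed in the files as E130309F12Rik). The median log2 fold change of these markers was 0.10, from -0.44 for Matn4, which did not pass, to 0.51 for Lppr1. Vcan and Tnr, placed with the other committed and newly formed genes, fell (log2 fold changes -0.83 and -0.81). The counts thus depend on the list in which a gene was placed. Pdgfra was at 19.7 and 22.6 FPKM in cKO and 20.1 and 16.0 FPKM in Ctrl (limma adjusted p = 0.425). All 10 mature markers fell, with a median of -1.32, from Opalin at -2.06 to Mag at -1.02. The lineage transcription factors Olig1, Olig2 and Sox10 fell, with a median of -0.70. No difference between these lists was tested.

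**Figure D3:**
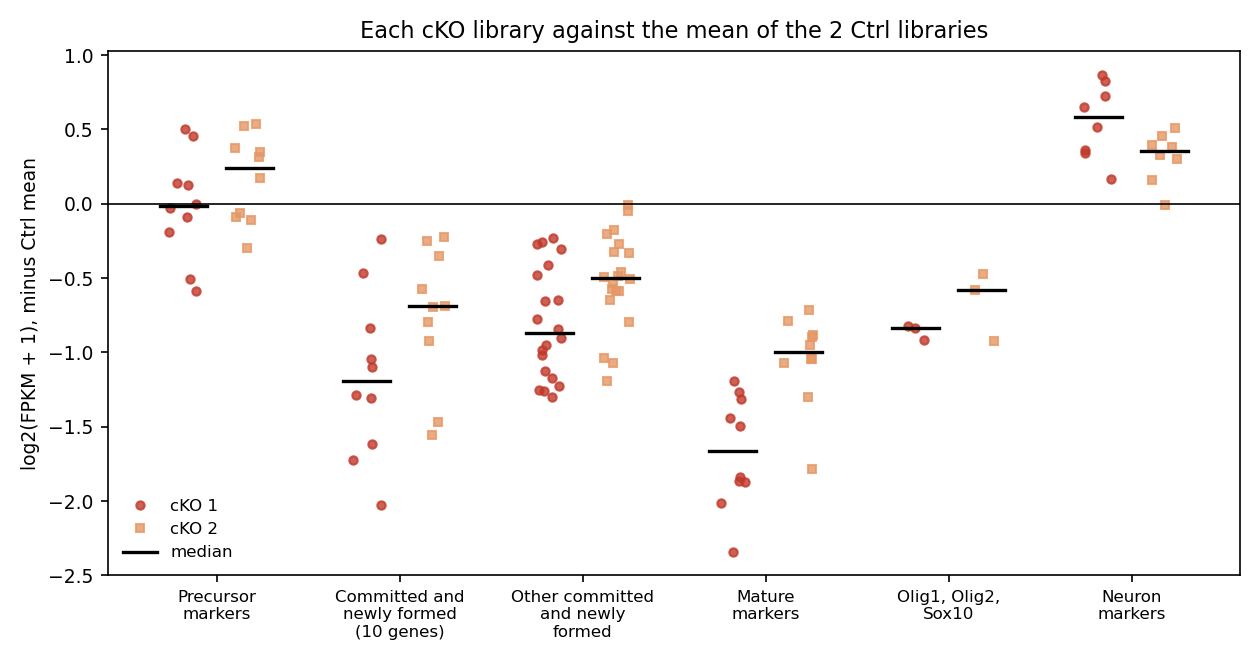
Log2(FPKM + 1) of each gene in cKO 1 (circles) and cKO 2 (squares) minus the mean of the 2 Ctrl libraries, by gene list, with black lines for medians. The medians of the 10 genes (-1.19 and -0.69) lie below those of precursor markers (-0.01 and 0.24) and above those of mature markers (-1.67 and -0.996).

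Set against these stages within each library, the 10 genes were described by their mean log2 level minus that of a marker list, with no test. Relative to precursor markers this difference was -0.33 and -0.10 in cKO libraries and 0.87 and 0.77 in Ctrl libraries. Each of the 10 genes was lower in both cKO libraries. All 10 had this order before the subtraction too, as did 29.3% of tested genes. The precursor markers themselves had a median log2 fold change of 0.10, so the subtraction largely repeats the lower levels of the 10 genes. Relative to mature markers it was -1.81 and -2.02 in cKO and -2.27 and -2.35 in Ctrl. Against this list 7 genes stood higher in cKO, Gpr17 and 9630013A20Rik stood lower, and Enpp6 overlapped. Some of these margins were narrow. Gpr17 was at -0.867 in cKO 1 and -0.815 in Ctrl 1, and Bcas1, which stood higher, was at -0.207 in cKO 2 and -0.237 in Ctrl 2. The mature markers themselves had a median log2 fold change of -1.32, so a gene that fell less stands higher against them. Relative to Olig1, Olig2 and Sox10 the difference was -1.76 and -1.55 in cKO and -1.21 and -1.69 in Ctrl, and the groups overlapped. Against these factors 9630013A20Rik, Gpr17 and Bcas1 were lower in both cKO libraries, by 1.03, 0.84 and 0.35 on the log2 scale between group means. Fyn and Tmem163 were higher against them, by 0.40 and 0.53, while the factors themselves had a median log2 fold change of -0.70. The shares of all tested genes that stand lower or higher against these lists were not counted.

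Itpr2 is listed in 2 transcript rows, which differ by a coding exon of 99 bases (chr6:146418418-146418516, minus strand, in GENCODE on GRCm38). The sequences are shown because the share of the row without the exon differed between the groups. Both are GENCODE transcript sequence, 5′ to 3′, with 30 bases on either side in lower case and the exon in capitals.
Itpr2 with the exon: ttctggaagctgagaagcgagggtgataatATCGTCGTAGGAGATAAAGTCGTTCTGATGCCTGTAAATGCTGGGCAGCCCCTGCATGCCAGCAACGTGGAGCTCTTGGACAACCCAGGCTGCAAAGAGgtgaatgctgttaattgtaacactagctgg
Itpr2 without the exon: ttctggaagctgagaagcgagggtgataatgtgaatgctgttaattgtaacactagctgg
The row lacking the exon took 28.2% and 23.2% of Itpr2 FPKM in cKO libraries and 1.53% and 2.16% in Ctrl libraries. Its level was 1.02 and 1.49 FPKM in cKO and 0.144 and 0.166 FPKM in Ctrl, so it was higher in cKO while the gene sum was lower. The row with the exon was at 2.59 and 4.93 FPKM in cKO and 9.25 and 7.49 FPKM in Ctrl. Taken alone, that row had a log2 fold change of -1.02, against -0.70 for the sum. Cufflinks divides shared reads between rows by a model, its error is not in the columns used here, and the shares were not tested.

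Fyn is listed in 3 rows that hold either of 2 exclusive coding exons, which give the B form known from brain and the T form known from lymphocytes. In GENCODE on GRCm38 the B exon has 165 bases (chr10:39529437-39529601, plus strand) and the T exon 156 bases (chr10:39529919-39530074, plus strand), with 537 and 534 codons in the whole coding sequence. They are shown, in capitals with 30 bases on either side, to make plain which rows share an exon.
Fyn B exon: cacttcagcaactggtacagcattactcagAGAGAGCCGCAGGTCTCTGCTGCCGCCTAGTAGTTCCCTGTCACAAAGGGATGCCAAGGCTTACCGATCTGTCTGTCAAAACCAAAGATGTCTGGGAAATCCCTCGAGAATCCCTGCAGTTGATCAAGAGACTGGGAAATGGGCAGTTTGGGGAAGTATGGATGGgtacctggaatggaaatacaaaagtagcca
Fyn T exon: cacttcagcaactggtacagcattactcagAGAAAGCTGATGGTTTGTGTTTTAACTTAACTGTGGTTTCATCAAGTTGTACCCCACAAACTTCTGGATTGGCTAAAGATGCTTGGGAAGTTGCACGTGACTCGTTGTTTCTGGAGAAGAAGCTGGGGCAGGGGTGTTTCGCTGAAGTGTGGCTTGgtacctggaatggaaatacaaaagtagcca
Rows with the T exon took 5.11% and 5.32% of Fyn FPKM in cKO libraries and 5.63% and 4.70% in Ctrl libraries, so the groups overlapped. Of those rows, the one of 3520 bases was at 0.484 and 0.563 FPKM in cKO and 4.94 and 2.08 FPKM in Ctrl. The one of 3450 bases was at 3.51 and 4.28 FPKM in cKO and 1.05 and 3.13 FPKM in Ctrl. The longer row was lower in cKO and the shorter row higher, while the shares of their sum overlapped. For Bcas1, the row without a 138-base coding exon took at most 2.31% in any library.

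**Figure D4:**
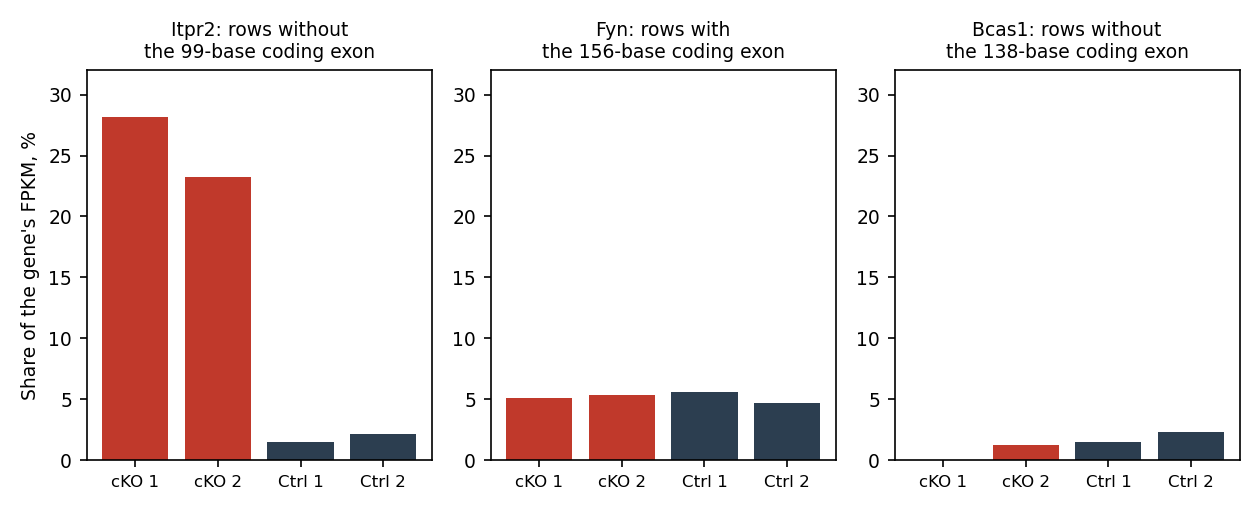
Share of the FPKM of Itpr2, Fyn and Bcas1 (percent) in the rows that lack or hold the named coding exon, by library, cKO in red and Ctrl in dark blue. The Itpr2 share is 28.2% and 23.2% in cKO against 1.53% and 2.16% in Ctrl, and the Fyn shares lie between 4.70% and 5.63% in all libraries.

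Close relatives of the 10 genes were listed by family. Of 42 relatives found by name, a total of 31 were tested, of which 7 fell and 1 rose. Over all tested gene sums 6.54% fell and 4.13% rose. The median of their log2 fold changes was -0.09. The inositol trisphosphate receptors Itpr1 and Itpr3 both missed the threshold, at -0.00092 and -0.05 on the log2 scale. Among Ras GTPases Nras fell (log2 fold change -0.51, limma adjusted p = 0.0398), and Hras (listed as Hras1), Mras and Rras did not pass. Among 5 tested Src family kinases Lck rose (1.77 and 1.46 FPKM in cKO, 0.629 and 0.547 FPKM in Ctrl), and Src, the most abundant after Fyn, did not pass. None of 8 zinc transporters of the Slc30 family passed. Kif18b, a relative of Kif19a, and Cnksr2, a relative of Cnksr3, did not pass, at 0.05 and 0.02 on the log2 scale.

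In the family of Enpp6, Enpp2, which makes lysophosphatidic acid and is known in oligodendrocytes, fell. It was at 52.3 and 84.1 FPKM in cKO and 176 and 150 FPKM in Ctrl (log2 fold change -1.28 ± 0.20, SE, limma adjusted p = 2.23e-05). Enpp4 fell too. Of 11 receptors related to Gpr17, 5 were tested, and P2ry1, P2ry12, P2ry13 and Gpr34 fell, by 0.74, 0.72, 0.89 and 0.92 on the log2 scale. The cysteinyl leukotriene receptors Cysltr1 and Cysltr2 were below the filter. P2ry12, P2ry13 and Gpr34 are known microglia genes. The sum of 6 microglia markers, none at 0 and P2ry12 among them, was 31.8 to 34.4 FPKM in cKO and 46.9 to 48.6 FPKM in Ctrl, and 3 of the 6 fell. The part of microglia in the levels of these receptors was not tested.

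**Figure D5:**
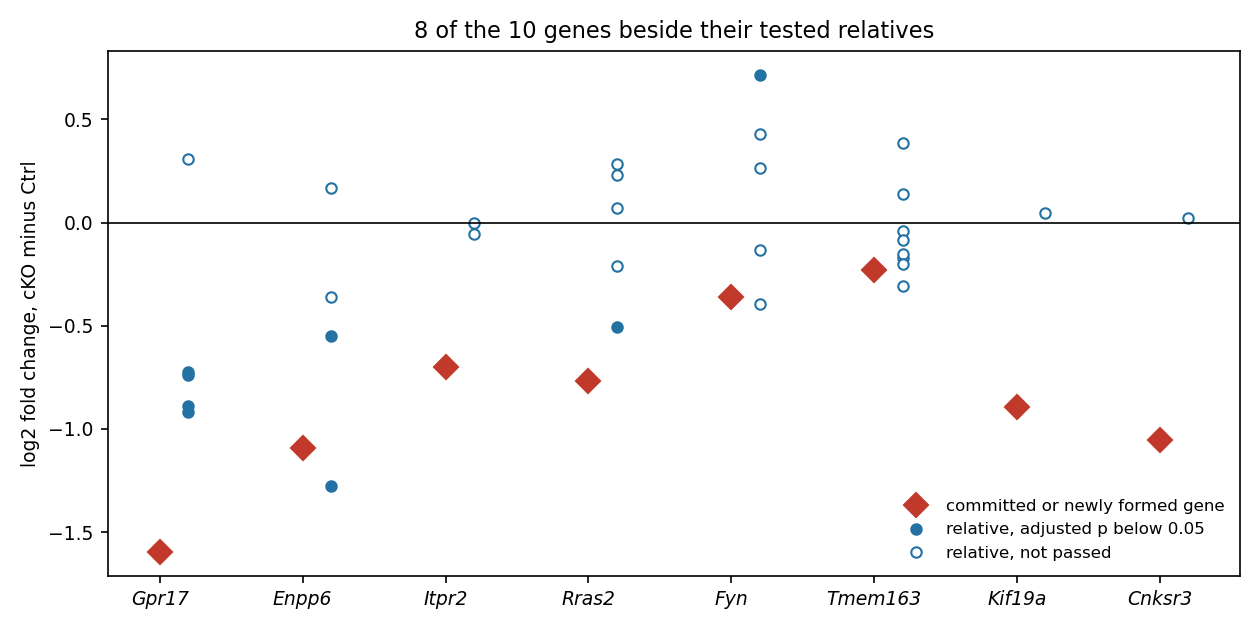
Log2 fold change (cKO minus Ctrl) of the 8 genes with listed relatives (diamonds) beside each tested relative (circles, filled where the limma adjusted p was under 0.05). The 2 relatives of Itpr2 lie near 0 while Itpr2 is at -0.70, and Enpp2, in the Enpp6 column, is at -1.28.

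Of 14 genes around the Fyn kinase, 1 fell and 1 rose, against 6.54% and 4.13% of all tested gene sums. The median log2 fold change of the 14 was 0.01. Mag, a myelin glycoprotein that signals through Fyn, fell, and Ntn1, the guidance cue netrin 1, rose (14.6 and 14.6 FPKM in cKO, 9.70 and 8.35 FPKM in Ctrl). Mbp, whose mRNA is translated under Fyn control, was at 4235 and 6284 FPKM in cKO and 8794 and 10806 FPKM in Ctrl. Its log2 fold change of -0.92 had a wide error (± 0.48, SE), and it did not pass (limma adjusted p = 0.234). The Fyn inhibitor Csk, at 39.5 and 31.5 FPKM in cKO and 26.7 and 29.7 FPKM in Ctrl, did not pass either.

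Neighbouring genes were counted as well. Of 21 tested genes that flank or overlap the 10 loci on mm9, 1 fell and none rose, against 6.54% and 4.13% of all tested gene sums. That gene was Ccnt2, a cyclin of transcription elongation 96.1 kb from Tmem163, at 6.12 and 7.77 FPKM in cKO and 10.9 and 9.90 FPKM in Ctrl. Spon1, 3.41 kb from Rras2, had a log2 fold change of 0.26 and did not pass. Btbd17, 0.094 kb from Kif19a, had a log2 fold change of 0.29 and did not pass either.

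The genes whose profile over the 4 libraries was nearest to the mean of the 10, among 8391 gene sums of at least 5 FPKM, were Gpr37, Lass2, Zdhhc9, Sytl2 and Trim13. Their distances on the centred log2 scale ran from 0.0628 to 0.088, while Cnksr3, the nearest of the 10, was at 0.118. Gpr37, a receptor of oligodendrocytes, was at 18.8 and 24.1 FPKM in cKO and 40.8 and 41.7 FPKM in Ctrl. Lass2, a ceramide synthase of very long chains, was at 60.3 and 84.8 FPKM in cKO and 135 and 134 FPKM in Ctrl. With 4 libraries this is a description only.

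RefSeq promoter sequence of 7 of the 10 genes was searched, and Gpr17, Bcas1 and Kif19a were not among them. The 250 bases before each start were searched on both strands. The letters were the SOX cores ACAAAG and ACAATG, the E-box CAGCTG and the TATA box TATAAA. These windows hold no matches that overlap one another. They are shown for the 3 genes that fell and hold any of the letters, on GRCm38.p6, 5′ to 3′ on the gene's strand, with matches in capitals: 9630013A20Rik (chr14:84476425-84476674, minus strand), Enpp6 (chr8:46986637-46986886, plus strand) and Cnksr3 (chr10:7212238-7212487, minus strand).
9630013A20Rik: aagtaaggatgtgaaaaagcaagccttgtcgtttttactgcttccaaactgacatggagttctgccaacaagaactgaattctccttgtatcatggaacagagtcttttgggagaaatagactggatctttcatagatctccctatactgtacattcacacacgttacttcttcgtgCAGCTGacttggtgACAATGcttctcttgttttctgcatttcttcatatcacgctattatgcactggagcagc
Enpp6: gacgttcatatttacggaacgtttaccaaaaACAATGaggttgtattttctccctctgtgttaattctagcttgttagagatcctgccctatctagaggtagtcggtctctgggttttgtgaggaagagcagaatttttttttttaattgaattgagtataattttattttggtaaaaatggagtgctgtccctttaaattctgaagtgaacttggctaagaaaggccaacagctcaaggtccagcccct
Cnksr3: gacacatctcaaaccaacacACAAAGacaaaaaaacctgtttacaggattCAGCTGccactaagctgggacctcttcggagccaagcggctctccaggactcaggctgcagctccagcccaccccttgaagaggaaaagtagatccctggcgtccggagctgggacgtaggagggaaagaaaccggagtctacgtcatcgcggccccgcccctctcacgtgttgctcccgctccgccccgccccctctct
ACAAAG was found in 1 of the 7 genes and in 16.5% of 32851 promoters, and ACAATG in 2 of the 7 and in 10.7% of promoters. CAGCTG was found in 2 of the 7 and in 4271 of the 32851 promoters, and TATAAA in none of the 7 and in 12.4% of promoters. In 9630013A20Rik the E-box letters start 73 bases and the ACAATG letters 59 bases before the start. Fyn and Tmem163, which did not pass, and Itpr2 and Rras2, which fell, hold none of the letters in this window. The upstream GC content ran from 38.4% in Enpp6 to 74.4% in Itpr2, with a median of 52.4% over all promoters.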

How the data were processed

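Values are those of 4 tables, 1 per library, in the layout that Cufflinks writes. The deposited unit is FPKM, per the file headers, and a coverage signal gives mean depth per base, per the file headers. Per the submitters' processing notes, the authors used CASAVA, TopHat, Cufflinks, Cuffdiff and mm9; the sources used here do not give their roles and versions. Of 28107 rows, 315 had a status other than OK in some library and were left out. FPKM was summed per gene symbol over rows of at least 300 bases, giving 21249 gene sums. Values were transformed as log2(FPKM + 1), which understates changes of low genes, and 12913 gene sums with a mean of at least 1 FPKM entered a limma fit (limma 3.58.1, R 4.3.3), with a mean-variance trend and Benjamini-Hochberg adjustment over all of them at 0.05. Count models need counts and were left out. The spread had 36.3 prior and 2 residual degrees of freedom, so it is mostly pooled over genes. Fold changes are cKO minus Ctrl. Locus starts were raised by 1. The 10 genes, the marker lists and the relatives were chosen with earlier results of these data known. All 10 genes and Chd7 are named, with relatives that passed or were abundant, up to 4 list genes by smallest p, the 5 nearest profiles, and genes chosen after their values were seen where a count is spelled out. Older symbols were matched by RefSeq accession. Depth limits Itpr2 most, and no interval for FPKM is in the columns used here. Alternatives were another pseudocount, no filter, other moderation, scalings and row sums, a replicate block, and each library left out.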

Additional observations from a re-analysis of the deposited data

How the results depend on the processing

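With no filter on low values none of the 10 genes fell, and 0 gene sums fell and 1 rose in all; with all rows summed 2 of the 10 fell (Gpr17 and 9630013A20Rik), with 30 lower and 23 higher in all. In these fits the prior degrees of freedom were 0.858 and 4.16, against 36.3, and the fold changes of the 10 genes were the same. The counts over all genes also moved to 550 lower under median-of-ratios scaling, to 460 lower and 204 higher under TPM scaling, and to 408 lower and 179 higher with the highest row in place of the sum; the cause was not tested. Leaving out 1 library in turn gave 6 to 8 of the 10 lower, 274 to 919 lower in all and 111 to 557 higher in all, the lowest of each without cKO 1; these fits leave 1 library in a group, which is assumed to vary like the other group. No gene of the 10 rose or changed direction under any alternative. Fyn and Tmem163 passed under none of the 14 alternatives, with the lowest adjusted p at 0.0746 and 0.222. The replicate block left 8 of the 10 lower and 351 genes higher in all, in place of 533; the labels do not say that the numbers pair the libraries, and deviations of same-numbered libraries correlated at -0.24 over genes. Crossing the numbers, an alternative chosen after seeing the data, gave 8 of the 10 lower, 1235 lower and 943 higher in all. No scaling moved the median of all genes by more than 0.03 on the log2 scale. Itpr2, at the lowest depth of the 10, was the gene that lost its call most often, in 5 of the 14.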
